A study of Mus musculus with 3 samples.

Results

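The 10 genes described here encode the receptors (Notch1, Notch2, Notch3 and Notch4), ligands (Jag1 and Dll4) and common target genes (Hes1, Hey1, Heyl and Nrarp) of the Notch pathway. They were chosen by name, and their probes were found by matching the RefSeq accession of each probe to a gene table. This gave 12 probes for the 10 genes, out of 20284 genes named on the array. All 12 probes were read from 1 spot per array.

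RNA from whole liver of c57BL6/J mice was read on 3 Agilent arrays of the one-colour type. One liver sample expressed wild-type human YAP (WT), another the mutant 1SA and another the mutant 2SA, each at 2 days after the gene was delivered. YAP is the transcriptional coactivator that the Hippo kinases hold in the cytoplasm, and per the study 1SA and 2SA are active forms that enter the nucleus. All groups shared the delivery method, a hydrodynamic tail vein injection of plasmid into young adult male mice, which reaches a part of the hepatocytes and injures the liver. In the study's vector the gene is driven by an AFP enhancer and an albumin promoter that act in hepatocytes, so the liver was a mosaic in which a part of the hepatocytes was meant to express Myc-tagged YAP. No uninjected liver was compared here. Each group held 1 array, and whether animals were pooled for an array is not given in the labels. No spread between animals could be estimated, no test was run, and a difference between YAP forms cannot be told apart from a difference between liver samples.

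Notch receptors are activated when a neighbouring cell presents a Jagged or Delta-like ligand. Proteases then release the receptor's intracellular part, which enters the nucleus, joins the DNA-binding protein RBPJ and switches on genes of the HES and HEY families. In the liver, Jag1 and Notch2 are known for guiding cells to a bile duct fate, Dll4, Notch1, Notch4 and Hey1 for their roles in blood vessel endothelium, and Notch3 and Heyl for their expression in the cells that wrap vessels. Work in mouse liver has named Notch2 and Jag1 among the genes that active YAP can raise.

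The members split over the arrays. Jag1, Hes1 and Notch4 were lowest on the 1SA array and highest on the 2SA array, while Notch1, Notch3, Hey1 and Heyl showed the reverse order. Many of these steps were small beside the scanner software's error of a spot. Of the members measured on all arrays, only Heyl in 1SA and Dll4, Hes1 and Hey1 in 2SA differed from WT by more than 2 spot errors. Notch3 and Notch4 did so in no comparison. Dll4 was low on 2SA alone, Nrarp was not well above background on 1SA, and Notch2 hardly differed. Among the 9 members measured on all arrays, the widest differences were between the mutants. Hey1 was 2.48-fold and Heyl 2.03-fold lower in 2SA than in 1SA, and Hes1 was 1.74-fold higher. Because whole liver was measured, fewer cells of a type and less RNA per cell cannot be told apart in any of these values.

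**Figure D1:**
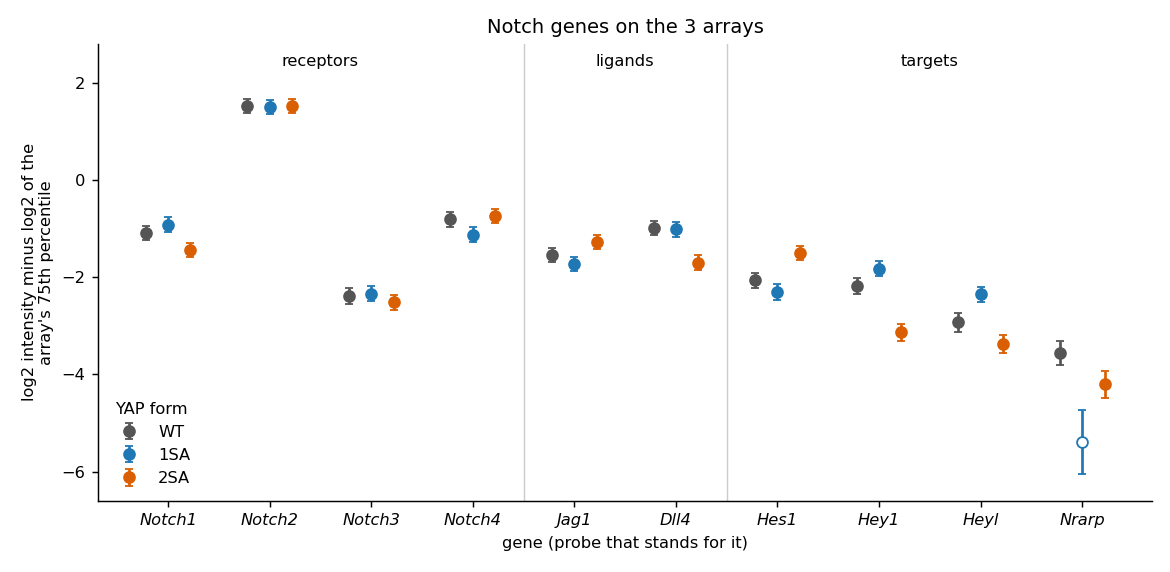
Normalised log2 intensity (vertical axis, log2 of the intensity minus log2 of the array's 75th percentile) of each Notch gene on the WT, 1SA and 2SA arrays. Each point is 1 array, bars are the scanner software's estimate of the error of the spot, and the open point (Nrarp on 1SA) was not well above background. Hes1 is highest on 2SA, Hey1 and Heyl are lowest there, and the 3 Notch2 points lie level. Heights of different genes are not comparable, because each comes from its own probe.

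The data are intensities, the brightness of a spot on a linear scale after background subtraction. They were divided by the 75th percentile of their own array, which was 291 for the WT array, 276 for 1SA and 319 for 2SA, and differences are given on the log2 scale. Of the probes on the array, 28972 were well above background on WT, 29705 on 1SA and 30784 on 2SA. Of the members, 9 had a probe well above background on all 3 arrays, as had 13626 genes in all, and Nrarp was the exception. Hepatocyte markers were well above background on every array, and all 7 were measured. Alb, the serum albumin gene, read 372102, 377413 and 333769 on WT, 1SA and 2SA, so the defining gene of the labelled tissue was present. The scanner software gives each spot an error, printed here after ±, and the SD of a log2 difference between repeated spots was 0.10. Both cover spot error alone and not the spread between animals.

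Some promoter sequence can be shown for members, since YAP reaches DNA through TEAD factors and Notch through RBPJ. RefSeq windows of build GRCm38.p6 were at hand for 7 members (Notch1, Notch2, Notch3, Notch4, Jag1, Dll4 and Nrarp), and the 250 bases before each start site were searched on both strands. The TEAD core GGAATG was found in 2 of the 7 windows (Notch1 and Notch4) and in 12.6% of all 32851 windows. The windows of both are printed with the core in capitals, where it appears as its reverse complement.
Notch1, chr2:26503823-26504072, minus strand: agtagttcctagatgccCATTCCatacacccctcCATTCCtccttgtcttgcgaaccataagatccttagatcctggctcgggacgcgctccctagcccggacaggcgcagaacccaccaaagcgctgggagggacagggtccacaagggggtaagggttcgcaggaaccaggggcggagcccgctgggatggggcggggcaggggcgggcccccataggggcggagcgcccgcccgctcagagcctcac
Notch4, chr17:34564045-34564294, plus strand: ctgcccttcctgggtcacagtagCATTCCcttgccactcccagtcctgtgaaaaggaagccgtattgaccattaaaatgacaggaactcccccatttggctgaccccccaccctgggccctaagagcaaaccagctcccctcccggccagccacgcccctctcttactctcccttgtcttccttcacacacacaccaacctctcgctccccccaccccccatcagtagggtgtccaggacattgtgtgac
Notch1 held the core at 233 to 228 and again at 216 to 211 bases before the start site, and Notch4 at 227 to 222 bases. The RBPJ core TGGGAA was in none of the 7 windows and in 21.6% of all windows, and the longer form GTGGGAA, which contains it, in none and in 5.42%. The N box CACNAG, a site type of HES proteins, was in 5 of the 7 windows (Dll4, Notch1, Notch2, Notch3 and Nrarp) and in 36.7% of all, and the E box CACGTG in the Nrarp window and in 6.02% of all. A match of such short letters is a description of the window, and a missing match says nothing about the factor.

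The first group of members is the receptors, of which none differed by 2-fold between any pair of arrays. Notch1 is a receptor of endothelium and many other tissues, and its brighter probe (NM_008714) gave 137 ± 14.0 (WT), 146 ± 14.8 (1SA) and 118 ± 12.0 (2SA). Its normalised level on 2SA was 0.35 below that of WT and 0.52 below that of 1SA, each with a propagated spot error of 0.21. The 2SA array was the low one, and WT and 1SA differed by 0.17, less than the spot error of 0.21. The dimmer Notch1 probe was not well above background on any array, with intensities of 6.26, 3.86 and 3.35.

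Notch2, the receptor most tied to bile duct formation, read 835 ± 83.5 on WT, 783 ± 78.4 on 1SA and 917 ± 91.7 on 2SA on its brighter probe (NM_010928). After scaling, its level on 1SA differed from WT by -0.01, that on 2SA from WT by 0.0004, and the mutants differed by 0.02. All 3 arrays gave the same level within the spot error of 0.20. Of the 13626 genes, 0.169% differed less than Notch2 between 2SA and WT. The dimmer Notch2 probe, at 11.6, 13.1 and 17.1, was well above background on 2SA alone. Its level there was 0.43 above WT and 0.17 above 1SA, each less than its spot error (0.50 and 0.41).

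Notch3, a receptor of vessel-wrapping mural cells (NM_008716), gave 55.8 ± 6.18 (WT), 54.5 ± 5.87 (1SA) and 56.0 ± 5.99 (2SA). Its differences of 0.04, -0.13 and -0.18, in the order 1SA against WT, 2SA against WT and 2SA against 1SA, were within the spot error of 0.22. Notch4, an endothelial receptor (NM_010929), read 166 ± 16.9, 127 ± 13.0 and 192 ± 19.4. Its 1SA level lay 0.31 below WT and its 2SA level 0.39 above 1SA, each under 2 spot errors. The order of Notch4 over the mutants was thus opposite to that of Notch1, and neither difference reached 1.5-fold.

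The ligands differed from each other in direction. Jag1, the Jagged ligand mutated in Alagille syndrome (NM_013822), gave 99.9 ± 10.4 (WT), 83.5 ± 8.68 (1SA) and 132 ± 13.4 (2SA). Against WT the difference was -0.18 in 1SA and 0.27 in 2SA, and between the mutants 0.45. The 2SA array was highest, and only the difference between the mutants passed 2 spot errors. Dll4, the Delta-like ligand of endothelial tip cells (NM_019454), read 147 ± 15.0, 136 ± 13.8 and 98.5 ± 10.12. WT and 1SA gave like levels (-0.03), and 2SA lay 0.72 below WT and 0.68 below 1SA, or 1.64-fold and 1.61-fold. Among the 1000 probes nearest in signal, 96.5% differed less than Dll4 between 2SA and WT.

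Hes1, a transcriptional repressor that Notch raises in many cell types and that other signals also raise (NM_008235), read 69.5 ± 7.78 on WT, 55.8 ± 6.25 on 1SA and 113 ± 11.6 on 2SA. Relative to the 75th percentile of the array this was 23.9%, 20.2% and 35.3%. Relative to WT, Hes1 lay at -0.24 in 1SA and at 0.56 in 2SA, which left the mutants 0.80 apart. The 2SA array stood above the other two by more than 2 spot errors, and the 1SA array lay 1.05 spot errors below WT. Among probes of like signal, 94.0% differed less between the mutants.

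Hey1, a repressor of the same family best known from endothelium and heart (NM_010423), went the other way. It read 63.9 ± 7.28 on WT, 77.9 ± 8.29 on 1SA and 36.4 ± 4.54 on 2SA, which was 22.0%, 28.2% and 11.4% of the 75th percentile. Relative to WT it lay at 0.36 in 1SA and at -0.95 in 2SA, a difference of -1.31 between the mutants. By size it ranked 267 of 13626 genes in 2SA against WT and 227 in 2SA against 1SA. Among probes of like signal, 95.6% and 96.8% differed less in these comparisons. The 2SA array was the low one, with a spot error of 0.24 on either difference, while the difference of 0.36 on 1SA was under 2 spot errors.

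Heyl, the related repressor found in mural cells (NM_013905), read 38.2 ± 5.09 on WT, 53.9 ± 6.03 on 1SA and 30.7 ± 3.996 on 2SA. Heyl on 1SA differed from WT by 0.57 and on 2SA by -0.45, and the mutants differed by -1.02. Among the 9 members measured on all arrays, Heyl alone passed 2 spot errors in 1SA against WT, and it shared the order of Hey1, highest on 1SA and lowest on 2SA. Among probes of like signal, 95.1% differed less between the mutants. The processing mattered for these dim targets. One alternative joined normexp background correction to an offset of 50 added to every spot, which is of the size of their intensities. The correction and the offset were not tested apart. With both, the difference of 2SA against 1SA was 0.35 for Hes1, -0.68 for Hey1 and -0.58 for Heyl. All 3 directions stayed, and none of the 9 members measured on all arrays then reached 2-fold.

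Nrarp, a feedback inhibitor that Notch switches on (NM_025980), was near the limit of detection. It gave 24.7 ± 4.31 (WT), 6.56 ± 3.004 (1SA) and 17.3 ± 3.27 (2SA). The 1SA spot was not well above background. It was therefore set to the lowest measured signal of that array, an intensity of 10.3. Nrarp then stood 2.28-fold higher on WT and 1.46-fold higher on 2SA than on 1SA. Neither is a strict lower limit, because the dimmer Notch2 probe read 13.1 on 1SA without being well above background. From the readings themselves, the difference was -2.60 spot errors in 1SA against WT and 1.66 in 2SA against 1SA. Between the arrays that measured it, Nrarp was 0.65 lower in 2SA than in WT, with a spot error of 0.37. Like Hes1, Nrarp read lowest on 1SA. Unlike Hes1 it read higher on WT than on 2SA, but by under 2 spot errors, so its order is uncertain.

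**Figure D2:**
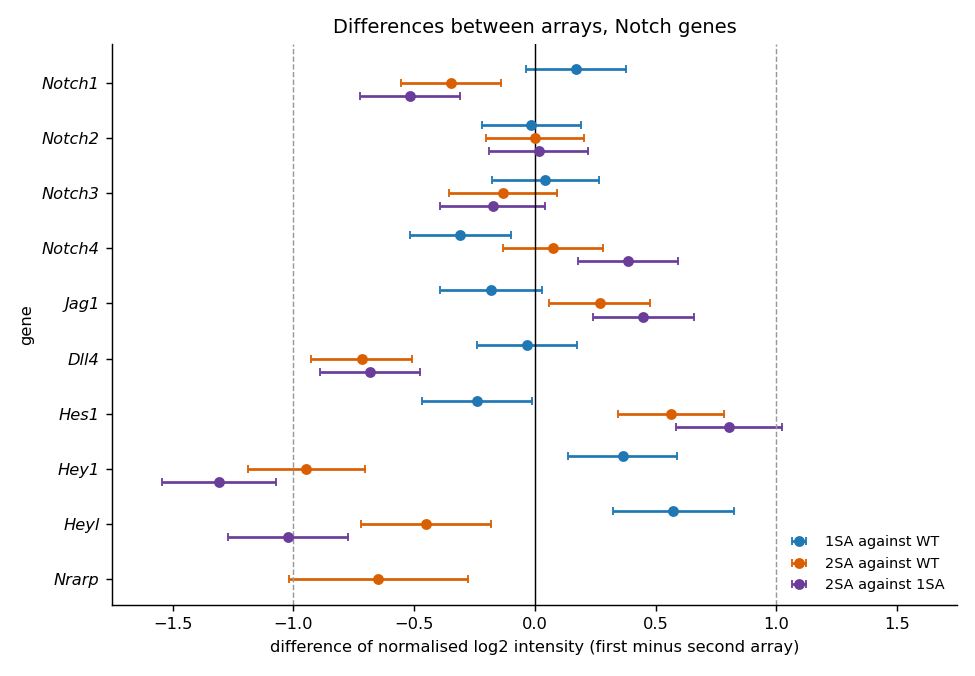
Difference of normalised log2 intensity (horizontal axis, first minus second array) for each Notch gene and each pair of arrays. Bars are the propagated spot error, dashed lines mark 2-fold, and pairs in which the gene was not measured on both arrays are left out. Hey1 and Heyl lie left of the lower 2-fold line in 2SA against 1SA, Hes1 lies at 0.80, and all 3 Notch2 points lie at 0.

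Over the 9 members measured on all arrays, the median lay at -0.01 in 1SA relative to WT, at -0.13 in 2SA relative to WT and at -0.18 between the mutants. The medians over the 13626 genes were -0.002, -0.03 and -0.03. The medians hide members that went both ways, since 4 of the 9 lay above 0 and 5 below in each comparison. Nrarp was left out of these counts because its 1SA spot was not well above background. It was 2.28-fold lower on 1SA than on WT with that spot set to the array's lowest measured signal. At 2-fold, none of the 9 differed in 1SA against WT, where 0.727% of genes were higher and 1.14% lower, nor in 2SA against WT, where 1.12% were higher and 0.543% lower. In 2SA against 1SA, 2 of 9 members (Hey1 and Heyl) were at least 2-fold lower and none higher, while 1.12% of genes were lower and 2.47% higher. At 1.5-fold, none of the 9 differed in 1SA against WT (3.08% of genes higher and 4.67% lower). In 2SA against WT, 2 members (Dll4 and Hey1) were lower and none higher, with 3.02% of genes lower and 3.79% higher. In 2SA against 1SA, 3 members (Dll4, Hey1 and Heyl) were lower and 1 (Hes1) higher, with 4.56% of genes lower and 6.99% higher. With normexp correction, Dll4 and Hey1 were at -0.51 and -0.47 in 2SA against WT, which ended both calls at 1.5-fold there, and between the mutants Hey1 alone stayed past 1.5-fold.

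Counted by spot error, 1 of 9 members (Heyl, higher) differed by more than 2 errors in 1SA against WT. Of all genes 12.9% did, 5.11% higher and 7.8% lower. In 2SA against WT the count was 3 of 9 (Hes1 higher, Dll4 and Hey1 lower), while 12.3% of genes did, 6.41% higher and 5.86% lower. In 2SA against 1SA it was 6 of 9, with Jag1 and Hes1 higher and Notch1, Dll4, Hey1 and Heyl lower. Of all genes 18.9% did, 10.4% higher and 8.48% lower. The comparisons share arrays, so these counts are not independent, and with 9 genes they describe these arrays alone.

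**Figure D3:**
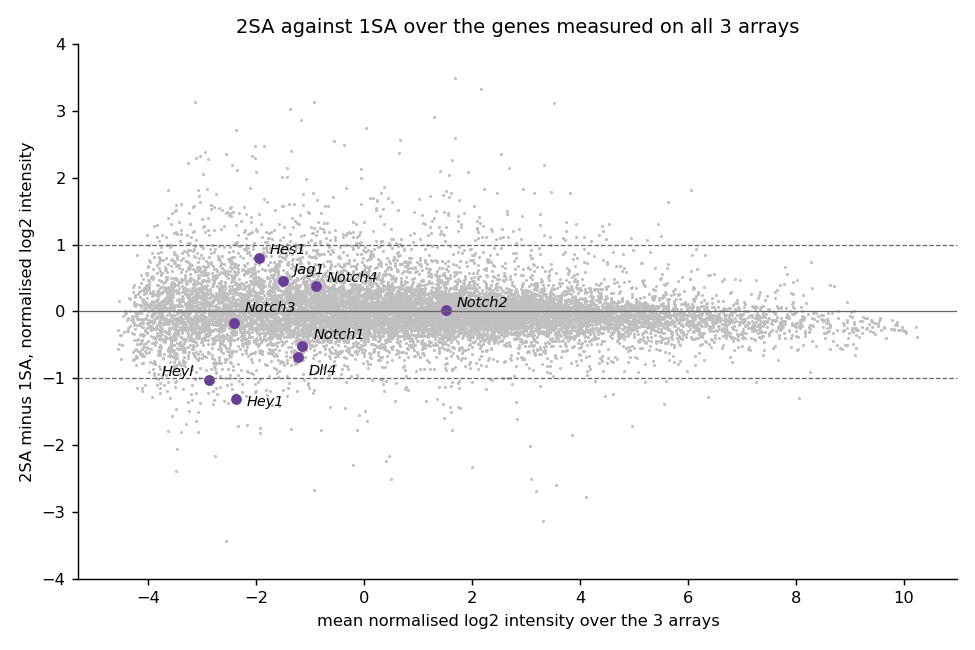
Difference of 2SA minus 1SA (vertical axis, normalised log2 intensity) against the mean normalised log2 intensity over the 3 arrays (horizontal axis) for the 13626 genes measured on all arrays. Grey points are genes, purple points are the 9 measured Notch members, and dashed lines mark 2-fold. Hey1 and Heyl lie below the lower line among dim genes, where grey points also spread widely, and Notch2 lies at 0.

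The rest of the pathway was read from a list of 56 other genes, of which 53 had a named probe and 47 were measured on all 3 arrays. Their median differed from WT by -0.04 in 1SA and by -0.06 in 2SA, and between the mutants by -0.03. No gene of the 47 reached 2-fold against WT in either mutant, and 1 did between the mutants, higher in 2SA. Of all genes 2.47% were at least 2-fold higher in 2SA than in 1SA and 1.12% lower. More than 2 spot errors separated 4 of 47 genes (8.51%) in 1SA against WT, 5 (10.6%) in 2SA against WT and 11 (23.4%) in 2SA against 1SA. These shares are near those of all genes given above.

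By role, the genes of the nuclear complex differed little at the median (-0.13, 0.003 and 0.06). Rbpj, the DNA-binding partner of every Notch receptor, read 384, 343 and 424 on WT, 1SA and 2SA and differed by at most 0.09. The 8 measured nuclear genes lay between -0.55 (the coactivator Maml2 in 1SA against WT) and 0.65 (its relative Maml3 in 2SA against 1SA), which were picked out after their values were seen. The 8 measured proteases, which release the receptor's intracellular part, had medians of -0.01, -0.05 and -0.04. Among them Aph1b, a subunit of gamma-secretase, differed by -0.54 between 1SA and WT and by 0.68 between the mutants on its brighter probe, while its dimmer probe gave -0.31 between the mutants, so its probes disagree.

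Genes that modify ligands and receptors held the largest differences of the list. Dtx4, a ubiquitin ligase of the Deltex family that acts on Notch, read 333 on WT, 202 on 1SA and 540 on 2SA. Relative to WT it lay at -0.64 in 1SA and at 0.56 in 2SA, which put the mutants 1.20 apart, the widest gap in the list. Lfng, the Fringe enzyme that extends fucose on the receptor and tunes which ligand a receptor answers, read 57.9, 49.2 and 106. Relative to WT it lay at -0.16 in 1SA and at 0.74 in 2SA. Both genes had the order of Jag1 and Hes1 over the arrays.

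Other genes were lower on 2SA than on 1SA, as Hey1 and Dll4 were. Hes6, a HES protein that antagonises Hes1, read 4024 on WT, 6279 on 1SA and 4394 on 2SA, so that its 1SA level differed from WT by 0.72 and its 2SA level by -0.01. Dll1, a Delta-like ligand, read 87.2, 85.8 and 60.1, the mean of 10 spots per array. Its differences of 0.05, -0.67 and -0.73 are close to those of Dll4, and the repeated spots give them a smaller error of 0.07. Numbl, an endocytic adaptor related to the Notch inhibitor Numb, read 159, 128 and 109 and differed from WT by -0.24 in 1SA and by -0.69 in 2SA. Jag2, Dlk1, Dner, Hes3, Hes5 and Hey2 were not well above background on any array.

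**Figure D4:**
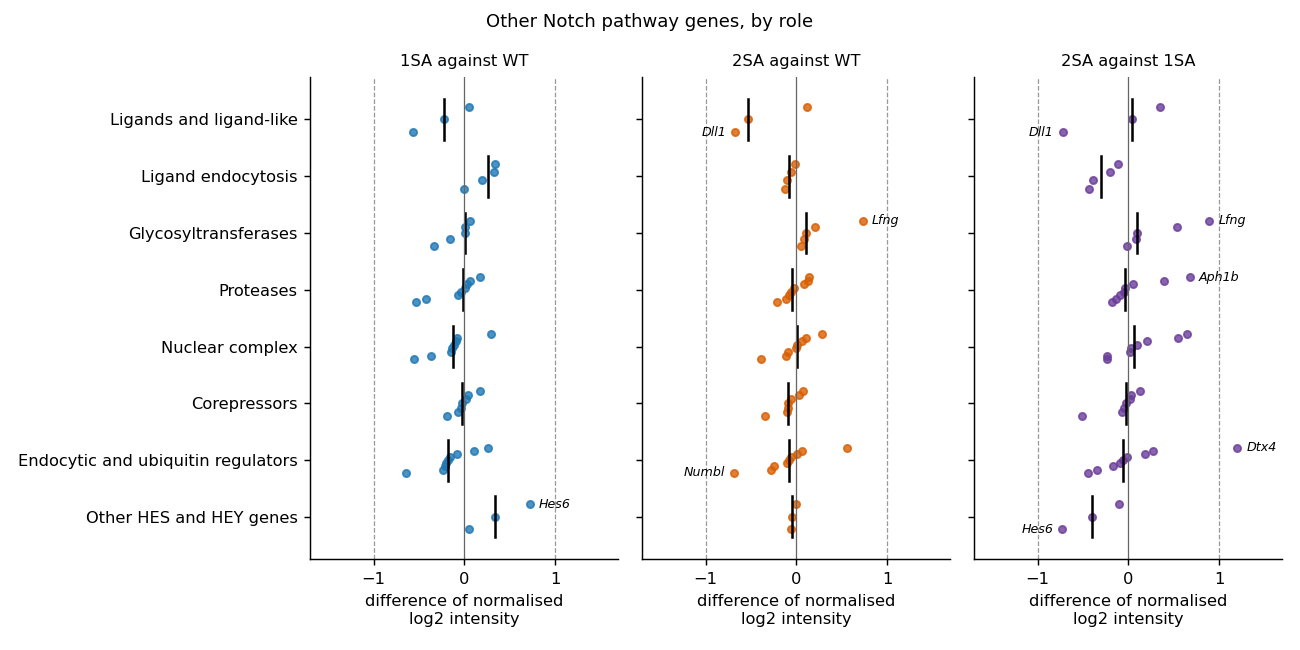
Difference of normalised log2 intensity (horizontal axis) of the 47 other Notch pathway genes, grouped by role (vertical axis), in the 3 comparisons. Each point is 1 gene, black bars are medians, dashed lines mark 2-fold, and labels name the genes with the largest differences. Most points lie near 0, and Dtx4 alone lies past 2-fold, in 2SA against 1SA.

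Several Notch members are expressed in cells other than hepatocytes, so markers of those cells were read on the same arrays. All 8 cholangiocyte markers (bile duct cells) were measured, and their median difference was -0.51 in 1SA against WT, 0.01 in 2SA against WT and 0.63 in 2SA against 1SA. Spp1, the secreted protein osteopontin, differed by -1.73 between 1SA and WT, the epithelial adhesion gene Epcam by -0.90, and the duct keratins Krt19 and Krt7 by -0.82 and -0.73. Sox9, a duct transcription factor, lay at -0.29 in 1SA and at 0.22 in 2SA relative to WT. The summed level of the 8 markers, in units of the array's 75th percentile, came to 14.1 (WT), 5.28 (1SA) and 11.9 (2SA). Spp1, at intensities of 3536, 1009 and 3132, made up most of this sum on each array, so its order is largely that of Spp1. Like Jag1, Hes1 and Notch4, the sum was lowest on 1SA, although it was highest on WT and not on 2SA. Cftr went the other way, 0.43 higher in 1SA than in WT, at intensities of 14.4 and 18.5. The part of these cells in the values of Jag1, Hes1 and Notch4 was not tested.

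Markers of stellate and mural cells were low on 2SA, as Hey1, Heyl and Dll4 were. Of 8 such markers 7 were measured on all arrays, and all 7 lay below WT in 2SA, with a median of -0.51. In 1SA against WT 5 of the 7 lay below 0, with a median of -0.15, and between the mutants the median was -0.09. Rgs5, a pericyte gene, lay at 0.56 in 1SA and at -0.66 in 2SA relative to WT. Lrat, the retinol-storing enzyme of stellate cells, differed by 0.26 and -0.60, and Rgs5 and Lrat were the markers of the 7 that shared the order of Heyl over the arrays. Pdgfrb, the PDGF receptor of these cells, differed from WT by -0.06 and -0.61. Acta2, smooth muscle actin, lay at -1.27 and -0.51, Tagln at -0.31 and -0.39, Des at -0.18 and -0.28, and Cspg4 at -0.15 and -0.09. Reln was well above background on 1SA alone. The summed level of the 7 markers came to 18.3 (WT), 13.8 (1SA) and 13.6 (2SA), most of it from Tagln. The part of these cells in the values of Heyl and Hey1 was not tested.

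All 12 endothelial markers were measured, with median differences of -0.12, -0.11 and 0.21. Their members went both ways in 2SA against WT, with 5 above 0 and 7 below. Clec4g, a lectin of liver sinusoidal endothelium, was 0.59 lower in 2SA than in WT, in the direction of Dll4 and Hey1. Emcn and Lyve1 differed by 0.35 and 0.37 in the same comparison, and Cd34 by -0.95 between 1SA and WT, in the direction of Notch4. In 1SA against WT 9 of the 12 lay below 0, and in 2SA against 1SA 7 lay above 0. The summed level of the 12 markers came to 80.3 (WT), 84.1 (1SA) and 66.6 (2SA). Most of this sum came from the bright genes Kdr, Clec4g and Stab2, so its order differs from these counts. The part of endothelial cells in the values of Dll4, Notch1, Notch4 and Hey1 was not tested.

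Among the other cell types, the 6 Kupffer cell markers all lay below WT in 2SA, with a median of -0.94, and Clec4f and Marco differed by -1.56 and -1.59. Their summed level came to 199 (WT), 143 (1SA) and 98.5 (2SA), most of it from Cd5l. The 7 hepatocyte markers had medians of 0.10, -0.13 and -0.18, and the largest single difference was that of Tat, 0.76 lower in 2SA than in 1SA. Of 5 lymphoid markers 3 were measured on all arrays, with medians of 0.10, 0.03 and -0.01, while Cd79a was well above background on 2SA alone and Il7r on WT and 2SA.

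**Figure D5:**
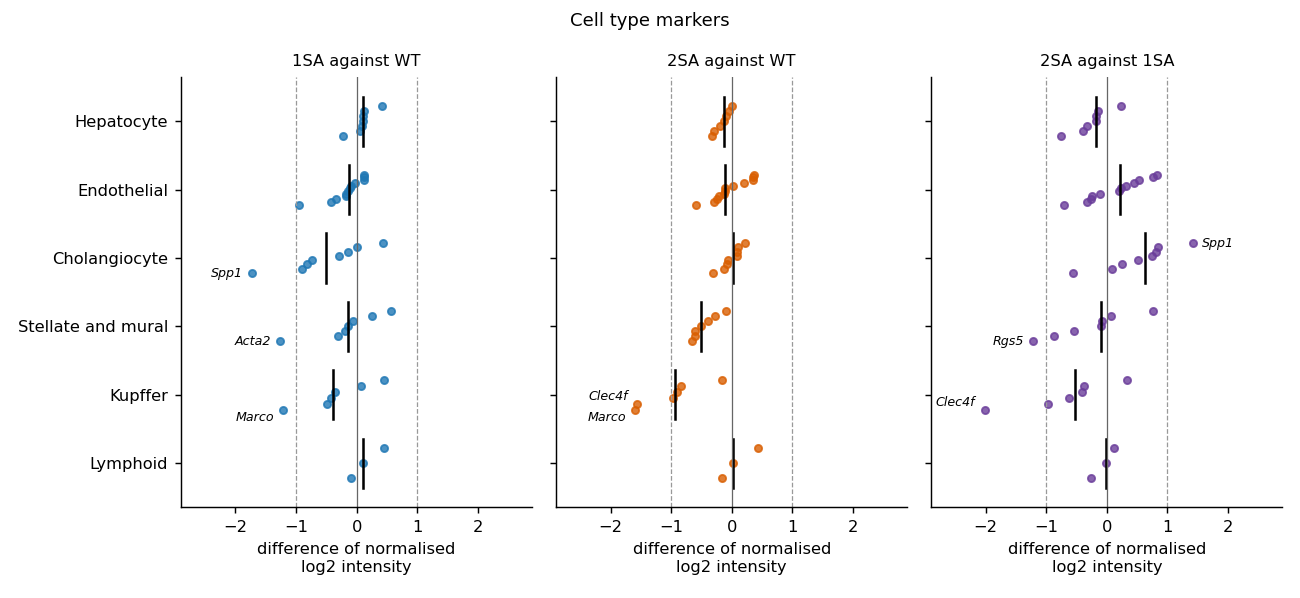
Difference of normalised log2 intensity (horizontal axis) of marker genes of liver cell types (vertical axis) in the 3 comparisons. Each point is 1 gene, black bars are medians, dashed lines mark 2-fold, and genes past 2-fold are labelled. Cholangiocyte markers lie mostly left of 0 in 1SA against WT and right of 0 in 2SA against 1SA, and all stellate and mural markers lie left of 0 in 2SA against WT.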

How the data were processed

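The authors extracted total RNA, labelled it with Cy3 and hybridised it to SurePrint G3 arrays, which lay on 1 slide. The deposited intensity of a spot comes from Agilent Feature Extraction 10.10.1.1 per the file headers, after background subtraction and with no scaling from array to array. The authors' value table is that intensity times 1 constant per array (3.02 for WT, 3.08 for 1SA and 2.81 for 2SA), with column medians of 61.8, 58.4 and 62.3. What the constants stand for is not given in the sources used here. The array design is placed on mm9.

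Control spots and spots marked as outliers were left out, no spot was saturated, and log2 intensities of a probe's spots were averaged and scaled to the array's 75th percentile. A probe counted as measured when at least 50% of its spots were well above background. RefSeq accessions named 26762 of 55681 probes through a table of GRCm38.p6, used for names and promoter windows. The brightest probe measured on all 3 arrays stood for a gene. Where only one array of a pair measured a probe, a bound was computed. The dim side was set to its own value or to that array's lowest measured signal, whichever was higher. Unmeasured spots can read above that signal, so the bound is approximate. Spot errors were propagated from the software's error of each spot. The number of arrays limits the precision.

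The members and lists were chosen with earlier results of these data known, and the limit of 2 spot errors after values were seen. List genes were named when they differed by at least 0.5 in any comparison, at most 6 per list. Rbpj, Maml2, Maml3, Alb, Tagln, Des, Cspg4, Kdr, Stab2 and the list genes named as not measured on all arrays were named outside this rule. The alternatives were quantile scaling, the array median, normexp with an offset of 50, the matrix, no filter or a stricter filter on dim probes, saturated spots left out, other folds, and the mean of all measured probes. The scaling and the counting were tested on simulated data, with the same noise for every spot and planted differences beyond 2-fold. The simulation held no spread between animals, so it does not cover smaller differences of dim single spots. No protein sequences were used here. Computations used Python 3.11.15, pandas 2.3.3, numpy 2.4.6, R 4.3.3, limma 3.58.1 and matplotlib 3.10.9.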

Additional observations from a re-analysis of the deposited data

Results flagged for a closer look

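Of the 10 members and the 6 named pathway genes, 4 lay on opposite sides of WT in the mutants, each by more than 0.21, which is 2 SDs of a difference between repeated spots. With 1 array per group none of these differences between the mutants was tested. Hes1 was 0.80 higher in 2SA than in 1SA, from a value 0.24 below WT and one 0.56 above it. With normexp correction these were -0.09 and 0.26, so the 1SA side no longer passed the limit. Hey1 differed by -1.31 between 2SA and 1SA, from 0.36 above WT in 1SA and 0.95 below it in 2SA. Heyl differed by -1.02, from 0.57 above WT and 0.45 below it. Dtx4 was 1.20 higher in 2SA than in 1SA, from -0.64 and 0.56 against WT. At the signal of Hes1, Hey1 and Heyl, the SD of a difference between repeated spots was larger, 0.18, 0.17 and 0.21 for 1SA against WT. For Heyl in 2SA against WT it was 0.25. Hes1 in 1SA and Heyl in 2SA did not pass 2 of these SDs. By propagated spot error, Hes1 in 1SA (-1.05 errors), Hey1 in 1SA (1.61) and Heyl in 2SA (-1.68) were under 2. Of the 4 genes, Dtx4 alone passed 2 spot errors against WT in both mutants.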

How the results depend on the processing

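No paired analysis was possible because there was only 1 array in a group. This also left no array to leave out, and all arrays lay on 1 slide, so no slide block was run. Quantile scaling, the array median, the series matrix and leaving out saturated spots (none were) changed no count of members at 2-fold. Among 45 differences of named genes, quantile scaling changed the sign of 2, the array median of 4 and normexp of 5, none larger than 0.03 in size, and the mean of all measured probes that of Aph1b in 2SA against WT. Normexp moved 28 of the 45 by more than 0.1044, the SD of a difference between repeated spots, and left 0 members at 2-fold lower in 2SA against 1SA and 0 pathway genes at 2-fold higher. The cause was not tested. Normexp also moved the share of higher genes among all genes at 2-fold in 1SA against WT from 39.0% to 51.0%.

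With no filter on dim probes all 10 members entered. The member median in 2SA against WT was then -0.24, and Nrarp gave 1 member at 2-fold lower in 1SA against WT and 1 higher in 2SA against 1SA. Of the 53 pathway genes then entered, 1 was higher in 1SA against WT, and 2 were higher and 1 lower in 2SA against 1SA. Shares of all genes at 2-fold without the filter are not given here, so these counts have no background beside them. With the stricter filter Notch2 alone remained, so the member median was 0.000416 in 2SA against WT and 0.0153 in 2SA against 1SA, with 0 lower. At 3-fold, 0 members were lower and 0 pathway genes higher in 2SA against 1SA. At 1.5-fold, 2 of 9 members were lower in 2SA against WT (3.02% of all genes). In 2SA against 1SA, 3 of 9 were lower and 1 higher (4.56% and 6.99% of all genes). Of the 47 pathway genes 1 was higher and 1 lower in 1SA against WT (3.08% and 4.67% of all genes). In 2SA against WT 1 was higher and 2 lower (3.79% and 3.02%), and in 2SA against 1SA 4 were higher and 2 lower (6.99% and 4.56%). The member median in 1SA against WT, -0.01, was 0.02 with the array median and 0.01 with normexp. Low signal limits Nrarp, which 1SA did not measure.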
